A study of Mus musculus with 4 samples.

Results

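Small nucleolar RNAs (snoRNAs) and small Cajal body RNAs were followed in ribosome footprint libraries of whole mouse testes at day 10, in 2 control samples and 2 samples from mice with Eif5 deleted in germ cells (Eif5 cKO). The members were the rows of the deposited table whose gene symbol starts with Snord, Snora or Scarna, and there were 60 of them among 14984 rows: 39 box C/D genes (Snord), 15 box H/ACA genes (Snora) and 6 Cajal body RNA genes (Scarna). They were chosen by symbol, but with the comparison of Eif5 cKO and control in these same libraries already known. There, Snord genes stood among the few genes that were higher. What follows on that comparison is therefore a description of these libraries, and the counts of calls support nothing beyond it. The Eif5 cKO mice carried floxed Eif5 alleles (Eif5 fl/fl) and a Stra8-Cre transgene, which acts in germ cells from the spermatogonial stage, so somatic cells of the testis kept Eif5. The labels give no genotype for the controls and do not say whether replicates are separate animals. The p-values therefore reflect the spread of these libraries alone, and that spread may be technical.

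Box C/D RNAs pair with ribosomal RNA or spliceosomal small nuclear RNA and direct the methylation of the ribose at the paired base by fibrillarin, held in a particle with Nop56, Nop58 and Snu13. Box H/ACA RNAs direct the conversion of uridine to pseudouridine by Dkc1, held with Nop10, Nhp2 and Gar1, and small Cajal body RNAs guide either modification on spliceosomal RNAs. A few members are needed to cleave the ribosomal RNA precursor rather than to modify it. In mammals most snoRNAs are cut out of introns of other genes, often genes of ribosomal or nucleolar proteins or long noncoding genes of the Snhg family. Mature snoRNAs are nuclear and are not translated, so their reads need not be ribosome footprints. Reads from such rows can come from any RNA fragment that passed through the footprint preparation.

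The 4 libraries held 2225964 to 2934609 whole reads, recovered exactly from the deposited values, which are reads divided by 1 factor per library and are called normalized reads here. The members held 10 to 9650 reads each in total (median 114), and 14 had fewer than 50. Cell type markers moved with the groups. The 12 germ cell markers took 0.366% and 0.319% of the control libraries against 0.151% and 0.180% of the Eif5 cKO libraries, replicate 1 first here and throughout. The 20 Sertoli cell markers took 2.67% and 3.45% against 4.62% and 3.53%, and the 9 Leydig cell markers 0.0691% and 0.0855% against 0.117% and 0.108%. No germ or Sertoli marker was at 0 in any library, and 1 Leydig marker, Ces1d, was. In whole testis, fewer cells of a type, less RNA per cell and fewer footprints per RNA cannot be told apart. The part of cell make-up in the results was not tested.

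All 60 members matched RefSeq's gene table for GRCm38, which holds 142 symbols with these prefixes, and annotated lengths ran from 28 to 275 bases (median 68 for C/D, 121 for H/ACA and 94.5 for Cajal body RNA genes). The table gives the span of each gene but not its exons or strand. By position, 56 members lay inside another gene, 45 of them inside a protein-coding gene, and 14 inside a ribosomal protein gene. Scarna13, a Cajal body RNA on chromosome 12 (105031075 to 105031349, inside the Snhg10 span), also contains a microRNA hairpin, Mir3069. The hairpin is shown because both of its mature arms, in capitals, have the length of a short RNA fragment, and reads over it cannot be told apart from reads of Scarna13 (RefSeq, GRCm38.p6, chr12:105031077-105031141, minus strand, 5′ to 3′):
Mir3069: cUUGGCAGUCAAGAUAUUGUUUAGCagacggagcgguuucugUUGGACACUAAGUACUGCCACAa
Scarna13 itself had 9.79 and 13.8 normalized reads in the controls and 13.6 and 19.7 in Eif5 cKO, and the groups overlapped.

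Box C/D genes took a larger share of reads in both Eif5 cKO libraries than in both controls. The share was 0.203% and 0.207% for the controls against 0.291% and 0.273% for Eif5 cKO, and the exact binomial 95% intervals of the 2 groups did not touch (0.198% to 0.213% over the controls, 0.267% to 0.298% over Eif5 cKO; counting error only). Control libraries averaged 0.205% ± 0.00308 and Eif5 cKO libraries 0.282% ± 0.0122 (SD, n = 2 each), a ratio of 1.37. For H/ACA genes the share was 0.0285% and 0.0375% in control against 0.0246% and 0.0575% in Eif5 cKO, so the Eif5 cKO libraries lay on either side of the controls. Cajal body RNA genes took 0.0151% and 0.0137% of control against 0.0121% and 0.0131% of Eif5 cKO reads. Both Eif5 cKO shares lay below both controls, and of the intervals of the 2 groups those of control replicate 1 and Eif5 cKO replicate 1 did not overlap while the other pairs did.

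**Figure D1:**
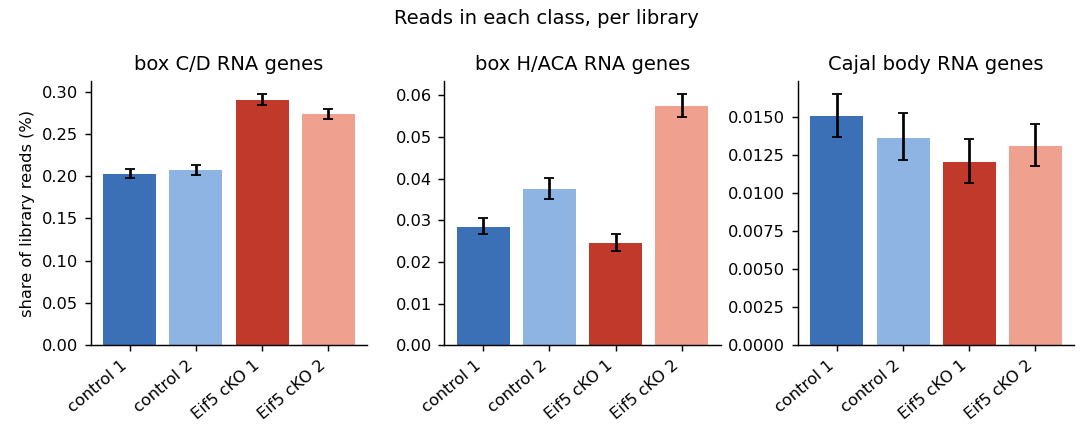
Bars give the percentage of each library's reads in box C/D, box H/ACA and Cajal body RNA genes, with a vertical scale of its own in each panel that starts at 0; error bars are exact binomial 95% intervals and cover counting error only. C/D shares are 0.203% and 0.207% for control against 0.291% and 0.273% for Eif5 cKO, while the H/ACA share of Eif5 cKO replicate 1 is the lowest and that of Eif5 cKO replicate 2 the highest of the 4.

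Snord37 and Snord104 made up 45.7% of all reads of the 60 members. Snord37, a methylation guide of large-subunit ribosomal RNA on chromosome 10 (81178961 to 81179013) inside the elongation factor gene Eef2, had 1951 and 1975 normalized reads in control against 2209.6 and 3224 in Eif5 cKO. Both Eif5 cKO values were above both controls, and Eif5 cKO replicate 2 stood apart from the other 3 libraries (log2 fold change 0.44, SE 0.25). Snord104, which guides methylation of the same ribosomal RNA (chromosome 11, 106500991 to 106501063), had 887 and 1007 in control against 1385 and 814, and its groups overlapped. Without these 2 genes the C/D share was 0.0845% and 0.0907% for control against 0.153% and 0.112% for Eif5 cKO. Leaving out Snord87, Snord123 and Snord15a as well, it was 0.0704% and 0.0730% against 0.103% and 0.0857%, and the groups still did not overlap.

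Per 100 annotated bases, Snord37 had a mean of 4415 normalized reads over the 4 libraries and lay above every other member in every library. Snord104 followed at 1401 and lay above the next member in every library. From there down, Snord85 at 434, Snord83b at 332, Snord87 at 322 and Scarna9 at 284 overlapped with their neighbours. The annotated spans of some members are short (42 bases for Scarna9), and a short span raises a level per base.

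**Figure D2:**
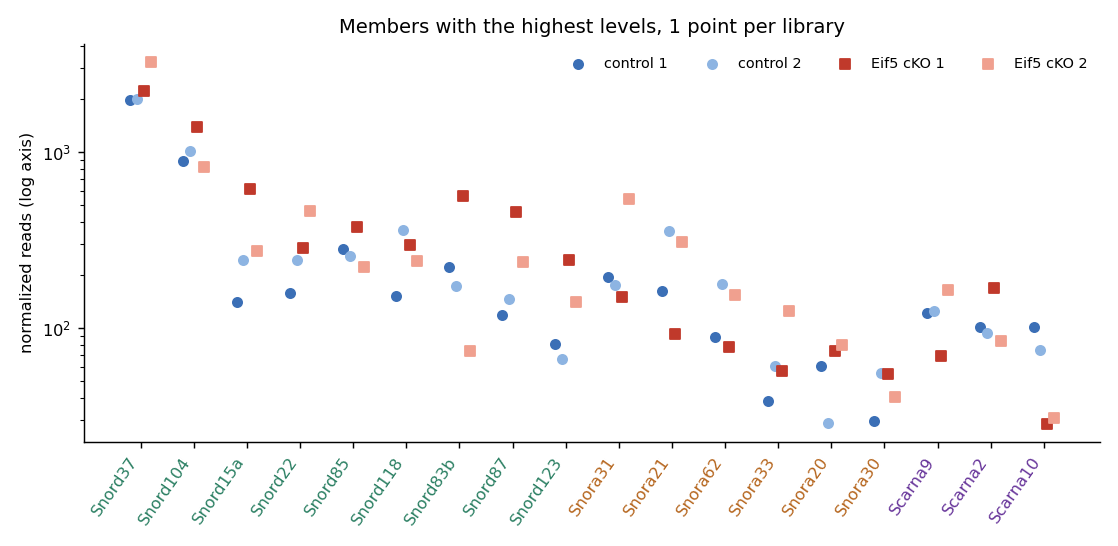
Each point is 1 library's normalized reads, on a log axis, for the members with the highest levels in each class and the 3 that passed the test; circles are controls, squares Eif5 cKO, and label colours mark box C/D (green), box H/ACA (brown) and Cajal body RNA genes (purple). Both squares lie above both circles for Snord87, Snord123, Snord15a, Snord22, Snord37 and Snora20, and below them for Scarna10.

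The fit of limma on log2(normalized reads + 1) with Benjamini-Hochberg adjustment over all 12095 genes that passed the filter on low values called 3 of the 49 members that passed it, all higher in Eif5 cKO and all of the C/D class. Of all genes tested, 0.0744% were called higher and 0.604% lower. Snord87, a guide for methylation of large-subunit ribosomal RNA, lies on chromosome 1 (9942470 to 9942543) within the spans of both Snhg6 and the meiotic gene Mcmdc2. It had 118 and 145 normalized reads in the controls against 454 and 235 in Eif5 cKO. Both Eif5 cKO values were above both controls, and Eif5 cKO replicate 1 was the highest of the 4. The means were 131 ± 18.6 and 345 ± 155 (SD, n = 2 each), with a log2 fold change of 1.31 (SE 0.27).

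Snord123 (chromosome 15, 32241845 to 32241932, inside Snhg18) had 80.8 and 66.6 normalized reads in control against 241 and 139 in Eif5 cKO. The groups did not overlap, and again Eif5 cKO replicate 1 was the highest (73.7 ± 10.1 and 190.0 ± 72.0, SD, n = 2 each; log2 fold change 1.31, SE 0.30). Snord15a, another methylation guide of large-subunit ribosomal RNA (chromosome 7, 99482785 to 99482932, inside the ribosomal protein gene Rps3), had 140.4 and 242 in control against 615 and 273 in Eif5 cKO. Here the lower Eif5 cKO value lay just above the higher control (191 ± 72.0 and 444 ± 242, SD, n = 2 each; log2 fold change 1.15, SE 0.29).

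These calls rested on the particular libraries. Without control replicate 1, no member was called (0.00827% of genes were called higher); without control replicate 2, only Snord15a was (0.0165%). Without Eif5 cKO replicate 1, Snord87, Snord123 and Snord15a had log2 fold changes of 0.84, 0.91 and 0.56, and none of the 3 was called (0.0992% of genes were), while Snord22 and Snora31 were called higher and Scarna10 and Snord83b lower (0.951% of genes were called lower). Without Eif5 cKO replicate 2 they were 1.79, 1.70 and 1.73, and 5 members were called higher, these 3 with Snord7 and Snord83b, and 2 lower, Scarna10 and Snora21 (0.843% of genes higher, 2.02% lower). On the recovered whole reads, the edgeR quasi-likelihood test called the same 3 (0.0992% of genes) and DESeq2 called Snord87 and Snord123 but not Snord15a (0.0744%).

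Among the 32 C/D genes that passed the filter, log2 fold changes were positive for 26 and negative for 6; the median was 0.45 against 0.0032 over all genes tested. Both Eif5 cKO values lay above both controls for 15 of the 32 and below both for 0. Over all genes tested these shares were 20.0% and 20.9%. The 15 include Snord110 (9 and 6 whole reads in control against 23 and 20 in Eif5 cKO) and Snord66 (10 and 8 against 24 and 15). Both genes passed the filter only through their Eif5 cKO reads, so their separation was partly set by it. The largest log2 fold changes among C/D genes that passed the filter were those of Snord110 and Snord61, which had 58 and 143 reads in total. Snord110, a guide for small-subunit ribosomal RNA inside Nop56, had 7.34 and 6.89 normalized reads in control against 26.1 and 17.9 in Eif5 cKO (log2 fold change 1.48, SE 0.77). Snord61, inside the splicing factor gene Rbmx on the X chromosome, had 21.2 and 17.2 against 46.6 and 54.7 (1.36, SE 0.49). For both genes every Eif5 cKO value exceeded every control value, and neither passed the test.

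Snord7, which guides methylation of the U6 spliceosomal RNA, had 49.8 and 63.1 normalized reads in control against 139.7 and 77.2 in Eif5 cKO. Snord8, also a guide for that RNA, had 12.2 and 4.59 against 14.8 and 19.7. Neither passed the test, although the groups did not overlap for either. Snord69, inside the nucleolar GTPase gene Gnl3, had 127 and 125 in control against 195 and 185 in Eif5 cKO (0.59, SE 0.27), and Snord16a, inside the ribosomal protein gene Rpl4, had 76.7 and 124 against 133 and 138. At the other end, Snord70 had 4.08 and 17.2 in control against 0 and 12.6 in Eif5 cKO (-1.39, SE 1.32). The next lowest values were those of Snord100, Snord49a, Snord55, Snord88c and Snord91a, whose log2 fold changes ran from -0.30 to -0.10, all with overlapping groups.

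Of the members needed for cleavage of the ribosomal RNA precursor or with another special role, none was called. Snord22, which is required for the small subunit and lies inside Snhg1, had 158 and 243 normalized reads in control against 282 and 458 in Eif5 cKO, without overlap (log2 fold change 0.87, SE 0.26), and did not pass the test. Snord118, also called U8 and required for the large subunit, had 151 and 358 in control against 295 and 239.6, and the controls alone spanned both Eif5 cKO values (0.19, SE 0.28). Snord13, a guide for acetylation of small-subunit ribosomal RNA, had 13.9 and 6.89 against 7.95 and 20.6. Snord14a, a copy of U14 inside Rps13, had 8 and 1 whole reads against 1 and 1, too few to pass the filter. The other 6 C/D genes below the filter had at most 8 reads in any library: Snord35a had 1 and 0 against 5 and 4, Snord93 had 2 and 1 against 7 and 6, and Snord42b, Snord111, Snord98 and Snord71 had 10 to 26 in total. No listed row had fewer than 10 reads in total. On their control reads alone, Snord35a, Snord93 and Snord42b would not have reached that number.

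Snord83b, inside the ribosomal protein gene Rpl3, showed the largest gap between the 2 Eif5 cKO libraries among members with over 500 reads. It had 221 and 172 normalized reads in control, 556 in Eif5 cKO replicate 1 and 73.6 in Eif5 cKO replicate 2, a ratio of 7.55 between the last 2. Its log2 fold change of 0.05 (SE 0.42) is therefore the mean of a higher and a lower library. That SE mixes the gene's own spread with variance pooled over genes. It was above the 0.28 of Snord118, a gene of similar mean level. The pooling still makes it smaller than the gap between the 2 Eif5 cKO libraries alone would give.

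**Figure D3:**
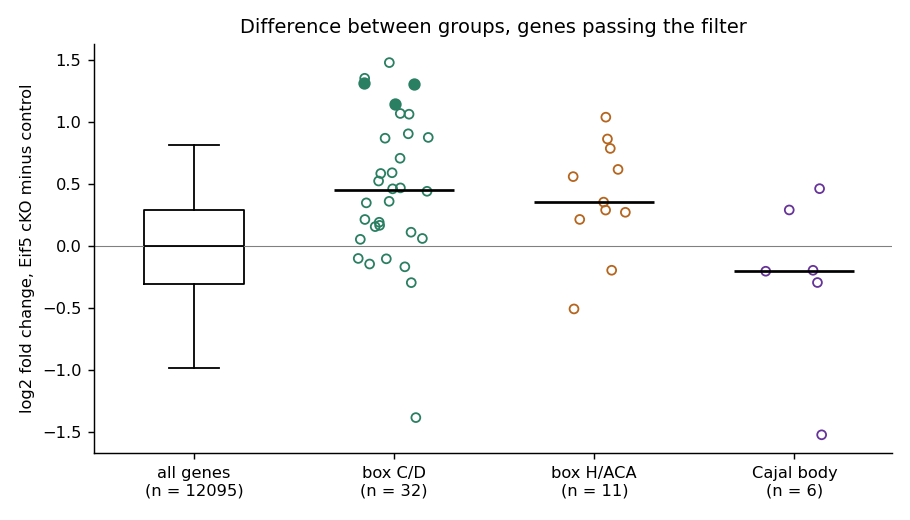
The vertical axis is the log2 fold change, Eif5 cKO minus control, for genes that passed the filter: a box over all 12095 genes (median, quartiles, whiskers at the 5th and 95th percentiles) and a point for each C/D, H/ACA and Cajal body RNA gene, with a line at each class median and filled points for the 3 called genes. The C/D median is 0.45, the H/ACA median 0.36 and the Cajal body median -0.20, against 0.0032 for all genes.

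For the H/ACA class, limma called 0 of the 11 genes that passed the filter. Of these, 2 had an unadjusted limma p under 0.05, where 10.6% of all genes tested lay. edgeR and DESeq2 also called 0, but DESeq2 gave no adjusted p for Snora41, Snora17 and Snora23 and could not call them. Log2 fold changes of the 11 were positive for 9 and negative for 2, with a median of 0.36. Both Eif5 cKO values exceeded both controls for 2 of the 11, Snora20 and Snora41, against 20.0% of all genes tested. Snora41 had 7 and 4 whole reads in control against 12 and 11 in Eif5 cKO, and passed the filter only through its Eif5 cKO reads. Its separation was therefore partly set by the filter. Snora20, inside the chaperonin gene Tcp1, had 60.4 and 28.7 normalized reads in control against 73.8 and 79.9 in Eif5 cKO (log2 fold change 0.87, SE 0.39). Snora41, inside the elongation factor gene Eef1b2, had 5.71 and 4.59 against 13.6 and 9.87. The H/ACA genes with the highest levels differed widely between libraries of a group. Snora31, inside Tpt1, had 193 and 174 in control, 149 in Eif5 cKO replicate 1 and 537 in Eif5 cKO replicate 2. Snora21, inside Rpl23, had 161 and 355 in control against 92.0 and 305 in Eif5 cKO (-0.51, SE 0.34).

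Snora33, inside Rps12, had 38.4 and 60.8 normalized reads in control against 56.8 and 125 in Eif5 cKO. Snora62, inside the laminin receptor and ribosomal protein gene Rpsa, had 88.1 and 176 against 77.3 and 153, and Snora30, inside Srcap, 29.4 and 55.1 against 54.5 and 40.4. The groups of all 3 overlapped, as did those of Snora7a, Snora17, Snora23 and Snora2b, whose log2 fold changes ran from 0.27 to 0.56.

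Snora28 lies inside the deleted gene. Its span on chromosome 12 (111540946 to 111541067, 122 bases) starts 2845 bases after the first base of the Eif5 span (111538101 to 111546753). It had 12 and 2 reads in control replicates 1 and 2 and 0 in both Eif5 cKO libraries. Over the groups that is 14 of 5160573 control reads against 0 of 5079465 Eif5 cKO reads. With 3 reads put in place of the Eif5 cKO 0, the ratio was 4.59. The control count was taken as exact there, so this ratio is not a lower bound. No row of the deposited values had fewer than 10 reads in total, so Snora28 was listed through its control reads alone. Control replicate 1 gave 12 of these 14 reads, and the gene did not pass the filter, so it was not tested. Eif5 itself had 365 and 304 normalized reads in control against 173 and 266 in Eif5 cKO (log2 fold change -0.63, SE 0.25; not called). Which exons were floxed is not given in the sources used here. The other 3 H/ACA genes below the filter had few reads. Snora68 had 1 and 0 whole reads against 8 and 5, Snora26 had 4 and 3 against 5 and 15, and Snora47 had 10 and 4 against 13 and 6. On their control reads alone, Snora68 and Snora26 would not have reached the 10 reads of the lowest row.

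All 6 Cajal body RNA genes passed the filter. limma called 0, with 1 at an unadjusted p under 0.05 (10.6% of all genes were). edgeR called 1 and DESeq2 called 0, but DESeq2 gave no adjusted p for Scarna6 and Scarna8 and could not call them. Scarna10, a guide for the U5 spliceosomal RNA on chromosome 6 (125186361 to 125186431) inside the condensin gene Ncapd2, was the one member that passed the filter with both Eif5 cKO values below both controls. It had 100.4 and 74.6 normalized reads in control against 28.4 and 30.5 in Eif5 cKO, with close values within Eif5 cKO (87.5 ± 18.2 and 29.5 ± 1.49, SD, n = 2 each; log2 fold change -1.52, SE 0.40). The adjusted p by limma with Benjamini-Hochberg adjustment was 0.0580, short of the threshold of 0.05, and over the alternatives it ran from 0.0158 (without Eif5 cKO replicate 2) to 0.760 (without control replicate 1). The alternatives that called it lower were edgeR (0.661% of genes were called lower), library totals (0.934%), scaling by Sertoli cell markers (0.670%), a replicate block (0.711%), and the fits without Eif5 cKO replicate 1 (0.951%) or Eif5 cKO replicate 2 (2.02%).

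The other Cajal body RNA genes had overlapping groups. Scarna9, a guide for the U2 spliceosomal RNA inside Cep295, had 121 and 124 normalized reads in control against 69.3 and 162 in Eif5 cKO. Scarna2, another U2 guide, inside no other gene, had 100.4 and 93.0 against 168 and 83.4. Scarna8 and Scarna6 had log2 fold changes of -0.20 and -0.29. The median over the 6 genes was -0.20, with 2 positive and 4 negative signs.

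Of the 50 members inside exactly 1 other gene, 33 could be set beside that gene with both passing the filter, over 29 host genes. Members had a higher log2 fold change than their host in 26 pairs and a lower one in 7, with a median difference of 0.45. The members' median was 0.44 and the hosts' -0.09. Reads of protein-coding hosts can be ribosome footprints, while those of members need not be, so the pairs hold unlike measures. Whether a member departed from the RNA level of its host was not tested. Both Eif5 cKO values lay above both controls for 13 of the 33 members and for 0 of their hosts, against 20.0% of all genes tested. The 13 include Snord110, Snord66 and Snora41, which passed the filter only through their Eif5 cKO reads. Among all 41 host genes tested, 2 were separated upward and 10 downward, against 20.0% and 20.9% of all genes. Of these 41, limma, edgeR and DESeq2 each called 0, and 3 had an unadjusted p under 0.05 in limma (10.6% of all genes did). Across the 33 pairs the Pearson correlation of the 2 log2 fold changes was 0.45 and Spearman's rho 0.44; the points share the same 4 libraries and some share a host, so this is only a description across genes.

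The largest difference from a host was that of Snord15a, whose host Rps3 had 1479.6 and 1535 normalized reads in control against 1351 and 1216 in Eif5 cKO (log2 fold change -0.23, SE 0.23), the opposite sign to Snord15a. Snhg18, the gene around Snord123, had 68.6 and 183 in control against 145 and 136 in Eif5 cKO (0.33, SE 0.32). Of the 2 genes around Snord87, Snhg6 had 12.2 and 19.5 against 10.2 and 22.4, and Mcmdc2 had mean values of 3.69 and 2.24, below the filter. Eef2, around Snord37, had 1997 and 1598 against 1620.0 and 1420.3. At the other end of the differences, Snord70 lay below its host Nop58 by 1.30 and Scarna10 below Ncapd2 by 1.12. Ncapd2 had 698 and 655 in control against 561 and 463 in Eif5 cKO (-0.41, SE 0.23), so both lay lower in both Eif5 cKO libraries. Of the 13 ribosomal protein genes that hold members, 9 are listed in the table; their values are uncertain because near-identical copies may share reads.

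**Figure D4:**
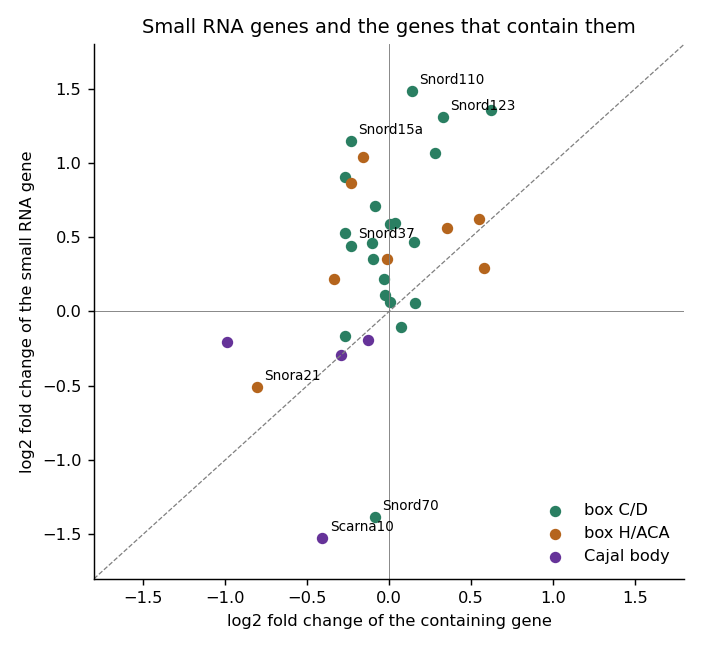
Each point is 1 of the 33 small RNA genes set against the 1 gene that contains it, by log2 fold change, Eif5 cKO minus control; colours mark the classes and the dashed line marks equal change. Points lie above the line in 26 pairs, and the hosts stay within a narrower range of log2 fold changes than the small RNA genes. Many small RNA genes had fewer reads and a larger SE than their host (0.77 for Snord110, 0.24 for Nop56), so the 2 ranges are not directly comparable.

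Members that share a host had different log2 fold changes. The noncoding gene 2410006H16Rik holds 3 members and Nop58, Rps12 and Gnl3 hold 2 each. Inside Nop58, a core protein of the C/D particle itself, Snord11 had a log2 fold change of 0.71 and Snord70 one of -1.39. Inside Rps12, Snora33 had 0.79 and Snord100 -0.30, and inside Gnl3, Snord69 had 0.59 and Snord19 0.06. Inside 2410006H16Rik, Snord65, Snord49b and Snord49a had 0.91, 0.53 and -0.17. The SE of these values was 0.27 to 1.32, and no difference between members of a host was tested.

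Within each group, the median H/ACA gene was higher in the replicate 2 library. The median log2 difference, replicate 2 minus replicate 1, was 0.65 in control and 0.97 in Eif5 cKO for the 11 H/ACA genes, 0.08 and -0.21 for the 32 C/D genes, and -0.0015 and 0.0030 for all genes tested. Snora21 was 2.21 times as high in control replicate 2 as in control replicate 1 and 3.32 times as high in Eif5 cKO replicate 2 as in Eif5 cKO replicate 1. Snora62, Snora2b, Snora23 and Snora33 were likewise higher in the replicate 2 library of both groups. Of the 11 genes, 5 were higher in replicate 2 of both groups, 2 were lower in both and 4 differed between the groups. Snora17 and Snora41 were lower in both. Snora31, Snora20 and Snora7a were lower in control replicate 2 than in control replicate 1, and Snora30 was lower in Eif5 cKO replicate 2 than in Eif5 cKO replicate 1. The medians of the 24 tested genes of microRNA type were also positive, 0.82 in control and 0.99 in Eif5 cKO. Over all 12095 genes the differences within the 2 groups had a correlation of -0.05, so same-numbered libraries did not deviate together as a whole. The ratio of H/ACA to C/D reads was 0.140 and 0.181 for the controls against 0.0846 and 0.210 for Eif5 cKO. The values within a group thus differed more than the group means did. What separates the libraries was not tested.

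**Figure D5:**
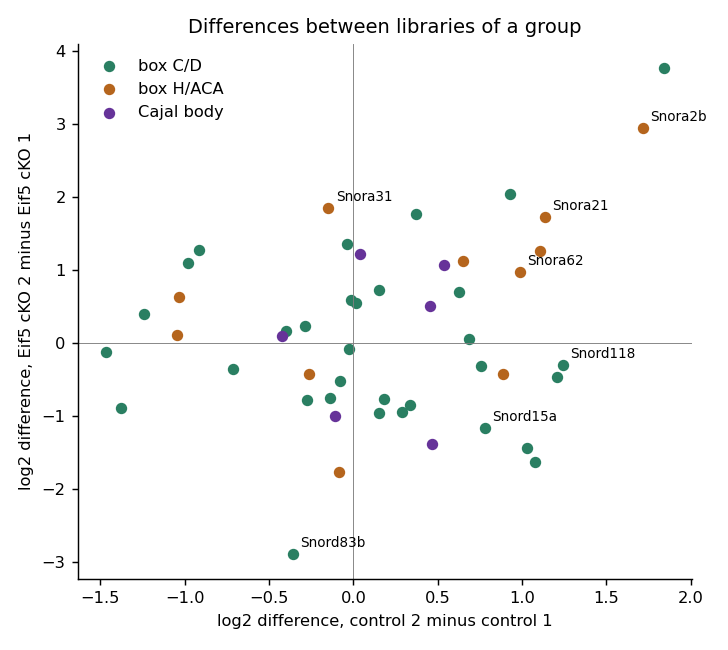
Each point is 1 of the 49 members that passed the filter; the horizontal axis is the log2 difference between the 2 control libraries and the vertical axis that between the 2 Eif5 cKO libraries, each as replicate 2 minus replicate 1. H/ACA genes such as Snora21 and Snora62 lie at the upper right, higher in the replicate 2 library of both groups, and Snord83b lies lowest, far higher in Eif5 cKO replicate 1.

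Genes of the proteins that carry, assemble or work with these RNAs were set beside the members. Of 47 listed genes 45 passed the filter; limma called 0, with 3 at an unadjusted p under 0.05 (10.6% of all genes were), and edgeR and DESeq2 also called 0. Of the 45, 15 had positive and 30 negative log2 fold changes (median -0.10). In the C/D core, the methyltransferase gene Fbl had 46.5 and 11.5 normalized reads in control against 11.4 and 20.6 in Eif5 cKO, Nop56 had a log2 fold change of 0.14 (SE 0.24) and Nop58 one of -0.09 (SE 0.23). In the H/ACA core, the pseudouridine synthase gene Dkc1 had -0.04 (SE 0.25), Nop10 -0.21, Nhp2 -0.21 and Gar1 0.02. The assembly list (9 genes) had a median of -0.04, with the smallest p for Znhit6 (268 and 273 in control, 178 and 170 in Eif5 cKO; -0.64, SE 0.25). The 6 Cajal body genes had a median of 0.07 and the 8 genes of RNA polymerase I transcription one of -0.08. The pre-ribosome list had the lowest median, -0.30 over 15 genes with 12 negative signs. Tbl3, a processome subunit, had 415 and 351 normalized reads in control against 227 and 231 in Eif5 cKO (-0.73, SE 0.24). Heatr1, another processome subunit, had 779 and 658 against 550 and 418 (-0.58, SE 0.23). Neither passed the test.

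Other short noncoding RNA genes were set beside the members. A further 48 rows with other symbols, mostly predicted names, are typed as snoRNA or guide RNA by RefSeq, and 35 of them passed the filter. Their median log2 fold change was 0.42, with 27 positive and 8 negative signs, and both Eif5 cKO values exceeded both controls for 15 of the 35, against 20.0% of all genes. limma and edgeR each called 1 of them higher, Gm23751 (0.0744% and 0.0992% of all genes were). DESeq2 called 1 higher, Gm26109 (0.0744% of all genes were). Both genes were named after their values were seen. Listed by symbol, 70 microRNA and other structured RNA genes were also taken. The 33 that passed the filter had a median of 0.10, with 17 positive and 16 negative signs. Groups were separated upward for 3 and downward for 3 of these 33, against 20.0% and 20.9% of all genes. limma and DESeq2 called 0 of them, and edgeR called Mir6236 higher (0.0992% of all genes were). At an unadjusted p under 0.05 lay 7 in limma (10.6% of all genes did), 11 in edgeR and 4 in DESeq2. Of these, 4, 8 and 3 were higher in Eif5 cKO.

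The level of the class depended on what the libraries were scaled to. An alternative fit scaled the libraries on the summed reads of the Sertoli cell markers. The median of all genes then shifted to -0.45, the C/D median was 0.00094 and the H/ACA median -0.075. No member was called higher (0.00827% of genes were). Clu had the most reads of that list and weighed most in the sum. Its normalized reads were 35568 and 52646 in control against 70687 and 48370.5 in Eif5 cKO, and the groups overlapped. Ctsl came next, with 11407 and 15383.5 against 20234 and 16745.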

How the data were processed

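The members and gene lists were chosen with earlier results of these data known. Per the submitters' processing notes, Bowtie2, STAR, featureCounts and build GRCm38 were used, with versions, strand and multi-mapping handling not given in the sources used here. The deposited values are a normalized signal although their columns are named raw counts: every value was a whole multiple of 1 read's value in its column (100% of values, relative tolerance 1e-06), and 0 columns belonged to other samples.

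log2(value + 1) was modelled by group with limma 3.58.1 (R 4.3.3; eBayes with trend) over the 12095 genes passing filterByExpr of edgeR 4.0.16 (minimum count 10 on the recovered reads); this scale understates the change of low genes. Tests were two-sided, with Benjamini-Hochberg adjustment over all these genes and a threshold of 0.05. With 2 against 2 samples a permutation p cannot fall below 0.333, so calls rest on variance pooled over genes. Each SE given is that of limma, which mixes the gene's own variance (residual degrees of freedom 2) with the variance pooled over genes (prior 37). It is not the spread of the gene's own libraries alone. The edgeR quasi-likelihood test and DESeq2 1.42.0 on the recovered reads were alternatives, with other scalings, pseudocounts, filters, a replicate block and each library left out. DESeq2 gave no adjusted p for some members, such as Snord110 and Snord70, and could not call those. A self-test of the fits was run on simulated reads, and no result here rests on it. Hosts were genes whose RefSeq span contains a member.

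The rule named every called member; the 8 C/D, 6 H/ACA and 3 Cajal body RNA genes with the highest mean; the 6 C/D and 4 H/ACA genes passing the filter with the largest, and as many with the smallest, log2 fold change; members with a known processing or orphan role; members of hosts holding at least 4 (0 hosts did); and the extremes of the difference from the host. It also named Eif5, hosts of named members, core particle genes and the 2 genes with the smallest p in each protein sublist. Other genes in the text were named after their values were seen. The comparison with other snoRNA-type rows was added after seeing the data. Of the marker lists, limma called 8 of 12 germ cell genes lower (0.604% of all genes were) and 1 of 19 tested Sertoli cell genes higher (0.0744%). It called 0 of 8 tested Leydig cell genes, with 5 at an unadjusted p under 0.05 (10.6% of all genes were). RNA libraries were not analysed here.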

Additional observations from a re-analysis of the deposited data

How the results depend on the processing

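limma as reported called 3 members higher and 0 lower. edgeR, library totals, scaling on Sertoli cell markers and the replicate block each called 1 lower, Scarna10; Sertoli scaling called 0 higher and a threshold of 0.01 called 1. Leaving out each library in turn (leave-one-out) gave 0 to 5 higher and 0 to 2 lower. The C/D median of 0.45 was 0.00094 with Sertoli scaling, which moved the median of all genes to -0.45. The H/ACA median of 0.36 was 0.55 with DESeq2, -0.075 with Sertoli scaling and 0.59 with at least 50 reads in 2 libraries, and 0.23 to 0.87 with a library left out. The Cajal body median of -0.20 was -0.074 with edgeR, -0.064 with DESeq2 and -0.64 with Sertoli scaling, and -0.32 to 0.014 with a library left out. No gene of the particle protein list was called under any of these settings. Causes were not tested beyond what each setting changes. Replicate numbers are shared between groups, but with 2 pairs and a correlation of -0.05 over all genes they were not taken as pairs; the replicate block left 3 members called higher and moved the genes called from 9 higher and 73 lower to 14 and 86. Values for single genes, shares and gene totals were compared under the alternatives. Of these, 707 kept direction and side of the threshold or stayed within the spread, 27 moved, 19 lost and 6 gained a call or count. The spread is the pooled SD within groups, and leaving out 1 library of 2 cannot shift a single gene beyond it. Such values counted as kept unless a call changed, so the 707 does not measure dependence on single libraries. Snord70 counted as kept although its log2 fold change went from -1.39 to 0.50 without Eif5 cKO replicate 1. Most members had few reads, which limits every value for single genes.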
